A study of Mus musculus with 2 samples.

Results

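The Ebf genes encode the 4 early B-cell factors of the mouse, Ebf1 to Ebf4, and were read here in ganglion cells of the retina of the kind named J-RGC, which the adhesion molecule Jam2 marks. They were taken by gene symbol, and all 4 were found among the 24015 symbols counted. The samples were 2 RNA-seq libraries of 1 group, named A and B, from mouse retina at postnatal day 6. The cells were sorted by a transgenic green fluorescent label that the labels describe as J-RGC specific, after a magnetic bead step. Each library pooled several animals of its own litter. With all samples in 1 group, the comparisons made were between genes and between the 2 libraries.

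Early B-cell factors are transcription factors that bind DNA as dimers through a zinc-containing domain of their own kind. They also carry an immunoglobulin-like domain of the type found in Rel and NFAT proteins, and a helix-loop-helix domain for dimerisation. Ebf1 is best known for its part in making B lymphocytes, Ebf2 for brown fat and bone in the mouse, and Ebf3, like Ebf1 and Ebf2, for the differentiation of neurons after their last division. Ebf4, first described in olfactory neurons of the mouse, is the least studied of the family. In the developing mouse retina, Ebf genes are known from young ganglion, amacrine, horizontal and bipolar cells.

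Gene counts summed to 7916204 in library A and 13744313 in library B. Levels are in CPM, counts scaled to a gene total of 1000000 per library, given for A and then B, or as mean ± SD over n = 2 libraries. Of 15 genes shared by ganglion cells, 15 exceeded 100 CPM in both libraries, and of the J-RGC markers Jam2 stood at 2344 and 1203 CPM, Tbr1 at 60.9 and 91.2, Sorcs3 at 54.2 and 77.3 and Cdh8 at 29.2 and 56.5 CPM. Jam2 was thus higher in A and the other 3 higher in B by gene total. The spread between the libraries was wide, with a biological coefficient of variation of 0.507 over 11272 genes. The pools came from separate litters, and PCR reads without molecular identifiers are not independent molecules.

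Whether reads of one Ebf gene could be counted for another was checked first, because the members are paralogs. Ebf1 lies on chromosome 11, Ebf2 on 14, Ebf3 on 7 and Ebf4 on 2 of the mouse genome. In the reference transcripts (GENCODE M21, build GRCm38) their coding sequences held 1779 bases in Ebf1, 1728 in Ebf2, 1791 in Ebf3 and 2091 in Ebf4. Pairwise identity was highest between Ebf1 and Ebf3, at 79.6% of aligned bases, and lowest between Ebf2 and Ebf4, at 69.1%. All 4 had the same base at 57.1% of the 1707 positions they shared. The stretch of 60 bases most alike in all members, which codes for part of the DNA-binding domain, is shown. It was picked by identity over all 4 members, not by the longest run that any 2 members share. It covers coding bases 190 to 249 of Ebf1 and Ebf3, 187 to 246 of Ebf2 and 484 to 543 of Ebf4. Capitals mark a base that differs from the one most members hold, or from Ebf1 where no base leads.
Ebf1: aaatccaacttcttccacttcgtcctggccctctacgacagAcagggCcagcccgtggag
Ebf2: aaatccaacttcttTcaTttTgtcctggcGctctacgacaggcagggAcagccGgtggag
Ebf3: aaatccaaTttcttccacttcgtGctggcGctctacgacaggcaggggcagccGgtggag
Ebf4: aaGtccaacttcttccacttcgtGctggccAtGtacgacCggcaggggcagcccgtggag

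Even here 47 of the 60 bases were identical in all members, and the differing bases were spread along the stretch. The least alike stretch without gaps, at coding bases 1243 to 1302 of Ebf1 and Ebf3, 1213 to 1272 of Ebf2 and 1513 to 1572 of Ebf4, had 15 of 60 bases in common. It is shown in the same way for contrast, and Ebf4 departs most, with 28 capitals.
Ebf1: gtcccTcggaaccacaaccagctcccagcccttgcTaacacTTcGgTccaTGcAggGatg
Ebf2: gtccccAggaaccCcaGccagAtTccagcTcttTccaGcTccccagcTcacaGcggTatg
Ebf3: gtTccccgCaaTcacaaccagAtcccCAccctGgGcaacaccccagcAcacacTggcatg
Ebf4: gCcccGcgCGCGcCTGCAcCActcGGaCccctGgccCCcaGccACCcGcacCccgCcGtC

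No word of 50 bases was shared between any 2 members over all their reference transcripts. The longest shared run was 27 bases, between Ebf3 and Ebf4. No source used here gives the read length. Antisense genes are the other possible source of misplaced reads, since the use of strand in counting is not stated in the labels. Gm10860 overlaps 424 exon bases of Ebf2 and Gm45278 overlaps 355 exon bases of Ebf3, each on the other strand. Neither symbol was listed in the files, so reads from them cannot be told apart from those of Ebf2 and Ebf3.

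Ebf1 and Ebf3 were abundant, and Ebf2 and Ebf4 were low. Ebf1 had 7016 counts in A and 8207 in B, or 886 and 597 CPM. Ebf3 had 5609 and 11027 counts, or 709 and 802 CPM. Each of them stood among the top 228 of the 24015 symbols in both libraries, Ebf1 at rank 156 in A and 228 in B, and Ebf3 at rank 220 in A and 148 in B. Ebf2 had 84 counts in A and 331 in B, or 10.6 and 24.1 CPM. Ebf4 had 40 and 87 counts, or 5.05 and 6.33 CPM, above the floor of 3 counts (0.379 CPM in A and 0.218 in B). The exact 95% Poisson intervals of Ebf4, 3.61 to 6.88 CPM in A and 5.07 to 7.81 in B, overlapped. Those of the other members did not. They were 866 to 907 and 584 to 610 CPM for Ebf1, and 8.46 to 13.1 and 21.6 to 26.8 CPM for Ebf2. For Ebf3 they were 690 to 727 and 787 to 817 CPM. The share of all genes without overlap was not computed. By an exact binomial test of the 2 libraries, with no minimum fold, 10974 of 14107 genes differed at adjusted p under 0.05. These intervals cover counting error only. In sorted cells taken in bulk, fewer cells that use a gene and less RNA per cell cannot be told apart.

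**Figure D1:**
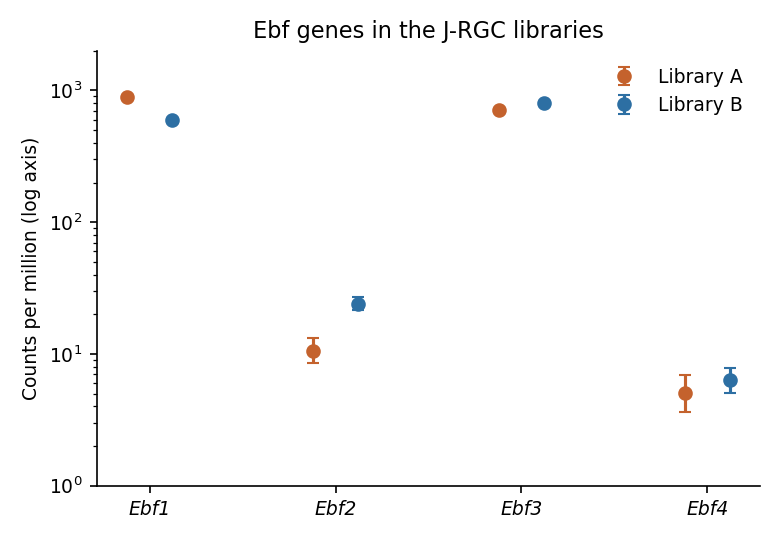
CPM (log axis) of the 4 Ebf genes in library A and library B, 1 point per library, with exact 95% Poisson intervals for counting error. Ebf1 and Ebf3 lie between 597 and 886 CPM in both libraries, and Ebf2 and Ebf4 between 5.05 and 24.1 CPM.

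The family together gave 1610 CPM in A and 1430 CPM in B, a ratio of 1.13. That ratio is by gene total, and edgeR's TMM factors shift it by 0.38 towards A on the log2 scale. The make-up of the family, which no scaling changes, also differed. Ebf1 took 55.0% of the family's counts in A (95% Wilson interval 54.2% to 55.9%) and 41.8% in B (41.1% to 42.5%). Ebf3 took 44.0% in A (43.1% to 44.9%) and 56.1% in B (55.4% to 56.8%). Thus the leading member was Ebf1 in library A and Ebf3 in library B. The Wilson intervals cover counting error only. With the spread between libraries added, the 95% interval of Ebf3 over Ebf1 per kilobase, 0.389 to 2.98, held 1. Ebf2 made up 0.659% of the family's counts in A and 1.68% in B, and Ebf4 0.314% and 0.443%.

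Levels of different genes were compared per kilobase of summed exon length, since a longer transcript gives more reads. That length was 9756 bases for Ebf1, 6928 for Ebf2, 9227 for Ebf3 and 3236 for Ebf4. Per kilobase, Ebf3 averaged 81.9 ± 7.18 CPM, Ebf1 76.0 ± 20.96, Ebf2 2.50 ± 1.37 and Ebf4 1.76 ± 0.279 (SD, n = 2). Of 16133 genes with a count and a length, 98.3% lay below Ebf1 in A and 97.3% in B. For Ebf3 the shares were 97.9% and 98.4%. Ebf2, above 50.2% of genes in A and 58.1% in B, and Ebf4, above 50.4% and 46.9%, stood near the middle.

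All 6 pairs of members were compared by the ratio of their levels per kilobase, with a 95% interval that adds edgeR's trended dispersion to the counting error. The interval excluded 1 in 4 pairs, each of which set Ebf1 or Ebf3 above Ebf2 or Ebf4. Ebf3 exceeded Ebf2 32.7-fold (11.3 to 94.4) and Ebf4 46.5-fold (15.4 to 141). In single libraries, Ebf3 over Ebf2 was 50.1-fold in A and 25.01-fold in B, and Ebf3 over Ebf4 49.2-fold and 44.5-fold. Ebf1 exceeded Ebf2 30.4-fold (10.4 to 88.4) and Ebf4 43.2-fold (14.2 to 132). Ebf1 over Ebf2 was 59.3-fold in A and 17.6-fold in B, and Ebf1 over Ebf4 58.2-fold and 31.3-fold, so the size of these ratios differed between the libraries. Within each level no order was shown. Ebf3 over Ebf1 was 1.08-fold, with an interval of 0.389 to 2.98, and stood at 0.845 in A and 1.42 in B. Ebf2 over Ebf4 was 1.42-fold, with an interval of 0.449 to 4.51, and stood at 0.981 in A and 1.78 in B. These intervals leave room for a ratio of more than 2-fold either way in both pairs. Without division by length, which Ebf4 with its shorter exons is most sensitive to, Ebf3 over Ebf4 was 133-fold and Ebf1 over Ebf4 130-fold. Ebf2 over Ebf4 was then 3.05-fold, 2.10 in A and 3.80 in B, with a log2 interval of -0.056 to 3.27 that still held 0.

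**Figure D2:**
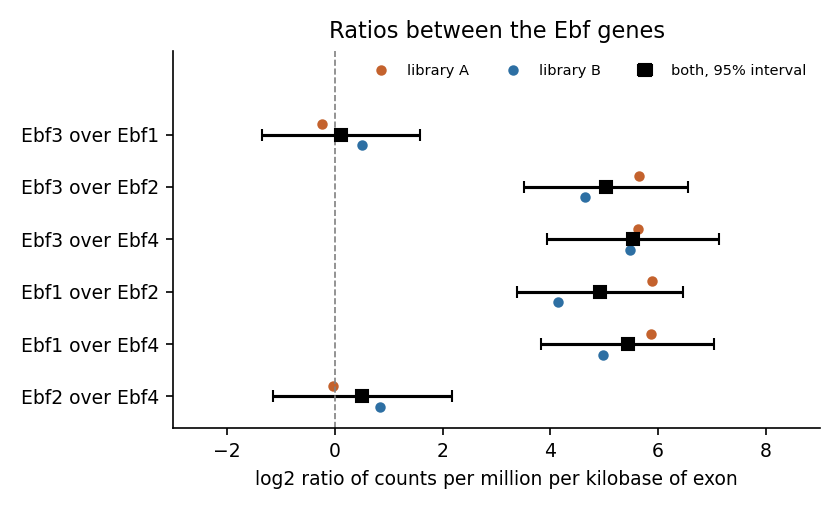
Log2 ratio of CPM per kilobase of exon for the 6 pairs of Ebf genes. Squares give both libraries with the 95% interval (counting error plus dispersion), and circles give each library alone. The intervals of Ebf3 over Ebf1 and of Ebf2 over Ebf4 span 0, and the other 4 lie above it.

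Between the libraries, Ebf1 was 1.48 times as high in A as in B, Ebf2 0.441 times, Ebf3 0.883 times and Ebf4 0.798 times. By an exact two-sided binomial test with Benjamini-Hochberg adjustment over 14107 genes, 1 of the 4 members, Ebf2, passed an adjusted p under 0.05 with a change of at least 2-fold (adjusted p = 2.65e-12, lower in A). The same call was made for 44.5% of all genes tested, 10.9% higher in A and 33.6% lower in A. With TMM 0 of the 4 members passed, and with DESeq2 size factors Ebf1 passed in place of Ebf2. This test compares the 2 libraries and no condition. Ebf4 gave an adjusted p of 0.313 in the exact test, and for Ebf1 and Ebf3 the change was below 2-fold.

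These ratios moved with the scaling of the libraries. Scaled by gene total, the median gene tested stood at -0.57 on the log2 scale of A over B, and edgeR's TMM factors shifted every ratio by 0.38 towards A. With TMM, 39.4% of all genes were called, 15.4% higher in A and 24% lower in A, and with DESeq2 size factors 38.9%, of which 16.9% of genes were higher and 22% lower. With TMM, Ebf2 was 0.575 times as high in A and no longer passed 2-fold, and Ebf1 was 1.94 times as high in A. Ebf3 and Ebf4, lower in A by gene total, turned to 1.15 and 1.04 times as high in A with TMM. Relative to the median gene, Ebf1 stood 1.14 higher on the log2 scale, Ebf3 0.39 and Ebf4 0.24 higher, and Ebf2 stood 0.62 lower. Ebf1 thus lay above 83.4% of all ratios, Ebf3 above 64.4%, Ebf4 above 59.2% and Ebf2 above 30.9%, whichever scaling was used. The ratio of Ebf1 to Ebf2, which no scaling can change, was 3.37 times as high in A as in B, and that of Ebf3 to Ebf1 was 0.595 times as high.

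**Figure D3:**
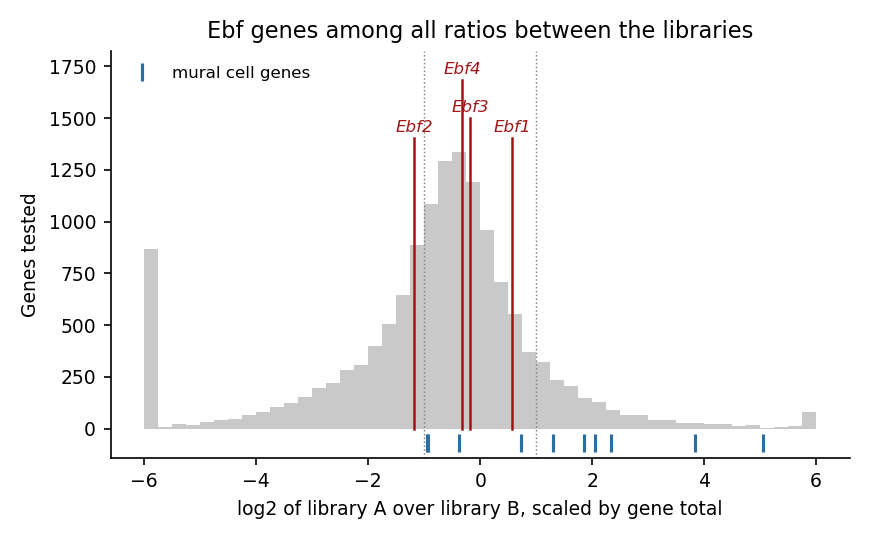
Histogram of the log2 ratio of library A over library B for the 14107 genes tested, scaled by gene total, with values beyond 6 in either direction drawn at 6. Red lines mark the Ebf genes, blue ticks the mural cell genes and dotted lines a 2-fold change. Of all ratios, 83.4% lie below that of Ebf1 and 30.9% below that of Ebf2.

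Ebf1 is also known from mural cells, the pericytes and smooth muscle cells of vessels, and most of their listed markers were likewise higher in A. The 10 mural genes summed to 617 CPM in A and 188 CPM in B, with 7 of 10 higher in A and none at 0 in either library. By the exact binomial test 6 were called higher in A and 0 lower, against 10.9% of all genes called higher and 33.6% lower. Cspg4 (11.1 and 14.5 CPM), Notch3 (2.40 and 4.58 CPM) and Des (1.39 and 2.69 CPM) went the other way. Rgs5, a regulator of G protein signalling in pericytes, stood at 342 and 82.4 CPM, the channel subunit gene Abcc9 at 165 and 66.6 CPM and the growth factor receptor gene Pdgfrb at 51.9 and 10.3 CPM. Their part in the Ebf1 reads was not tested. The 8 endothelial genes were low, summing to 11.1 and 32.6 CPM, with Tek, Cdh5 and Kdr the highest.

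Markers of B cells, the cells Ebf1 is best known from, were at or near 0. Of 12 B-lineage genes 7 had no count in either library, whereas 16969 of all 24015 symbols had a count in at least 1. Among the 7 were Cd79b, Ms4a1, Blk, Vpreb1, Igll1 and Rag1. The list summed to 1.64 CPM in A and 7.86 CPM in B, led by Blnk (0.379 and 3.93 CPM), Cr2 (1.14 and 3.06 CPM) and Pax5 (0 and 0.582 CPM). Microglia genes, read as a check for immune cells of the retina, summed to 558 and 462 CPM, with P2ry12 (85.4 and 85.3 CPM) and Csf1r (80.1 and 87.2 CPM) among the highest. None of the 10 was at 0.

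Other retinal neurons in which Ebf genes are known were read through their markers. Of the 5 genes of type 2 OFF bipolar cells, which need Ebf factors in the mouse, the highest were Syt2 (11.1 and 4.80 CPM), Neto1 (5.18 and 10.6 CPM) and Tacr3 (1.01 and 7.86 CPM). The defining factor Vsx1 stood at 0.505 and 1.02 CPM. The 5 genes summed to 17.8 and 25.8 CPM. Of 5 horizontal cell genes Lhx1 and Ptf1a had no count, and Onecut1 (2.40 and 13.2 CPM), Calb1 and Prox1 were highest. The 10 amacrine genes summed to 126 and 108 CPM, of which Gad2 gave 58.4 and 56.8 CPM and the factors Tfap2b and Tfap2a most of the rest. Genes of other bipolar cells were led in mean CPM by Isl1, which ganglion cells share, at 105 and 188 CPM, with Prkca at 131 and 95.5 CPM and Grm6 at 96.4 and 0.582 CPM, and summed to 359 and 327 CPM. The list of 8 Müller glia genes summed to 519 and 444 CPM, led by Dkk3, Glul and Vim. Of the rest, Clu stood at 23.0 and 48.9 CPM and Slc1a3 at 11.1 and 3.06 CPM. Aqp4 (4.93 and 0 CPM), Rlbp1 (0 and 1.60 CPM) and Sox9 (0 and 0.364 CPM) were lowest. Astrocyte genes summed to 5.81 and 2.11 CPM, led by Aqp4, Gfap and S100b. Photoreceptor genes summed to 40.9 and 31.6 CPM, with Pde6b and Nr2e3 among the highest. Such sums do not measure how much Ebf RNA these cells hold. The part of these cells in the Ebf reads was not tested.

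Among transcription factors of ganglion cells, Ebf1 and Ebf3 were near the top. They were ranked per kilobase with 42 other factors, 46 genes in all. Ebf1 ranked 2 in A and 5 in B, and Ebf3 ranked 5 in A and 4 in B. The POU factor Pou4f2, a driver of ganglion cell differentiation, led at 152 and 316 CPM per kilobase. By the mean, Pou4f1 (89.0 and 149), which marks many ganglion cell types, and the homeobox factor Barhl2 (88.2 and 149) came next. Ebf1 stood at 90.8 and 61.2 and Ebf3 at 76.8 and 87.0. Pou4f1 and Barhl2 thus lay between Ebf1 and Ebf3 in A and above both in B. Klf7, a regulator of axon growth, followed at 54.6 and 53.6 CPM per kilobase, lower than Ebf1 and Ebf3 in both libraries. Ebf2 ranked 36 in A and 32 in B, and Ebf4 35 and 36. Of the 42 factors, 36 were detected at 1 CPM or more in both libraries, beside 11241 of all 24015 symbols. The latter were 66.2% of the 16969 genes with a count. Atoh7, which starts ganglion cell formation, and Dlx2 had no count in either library. No interval was computed between Ebf genes and other factors.

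**Figure D4:**
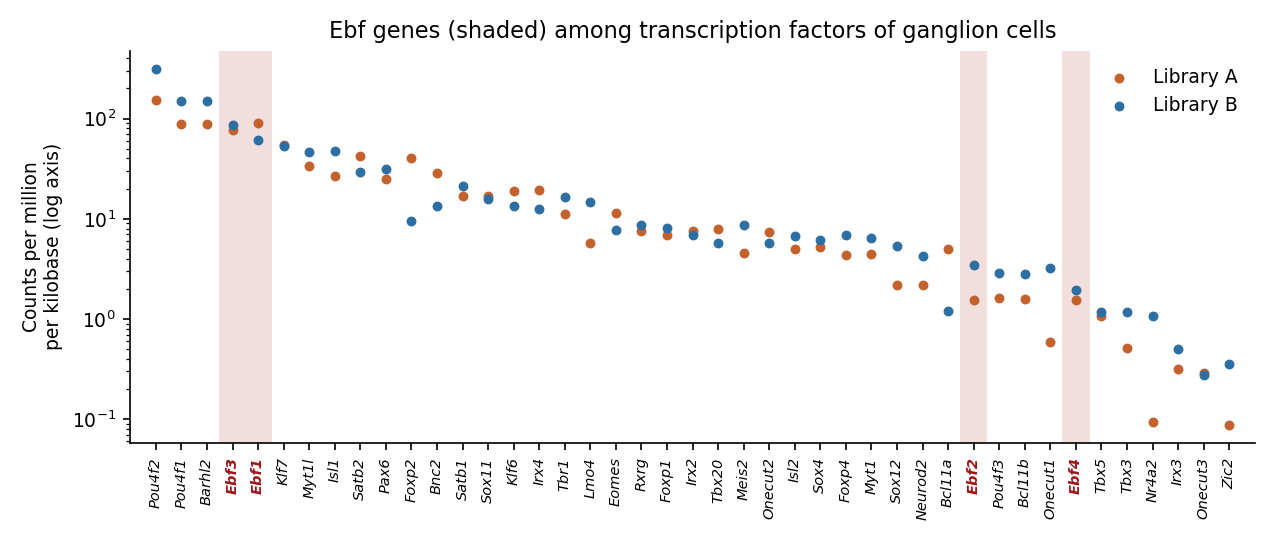
CPM per kilobase of exon (log axis) in library A and library B for the Ebf genes (shaded) and the transcription factors of ganglion cells with a count in both libraries, in order of the mean. By the mean, Ebf3 ranks 4 and Ebf1 5 of 46, after Pou4f2, Pou4f1 and Barhl2, and Ebf2 and Ebf4 rank 33 and 37.

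Proteins known to work with early B-cell factors were read as a list of 16 genes. At 1 CPM or more in both libraries, 13 counted as detected, beside 11241 of all 24015 symbols and 66.2% of those with a count. Of the 16 genes, 4 were above 100 CPM in each library. The list median was 42.4 CPM in A and 36.6 in B, beside 5.81 and 8.66 CPM over all genes with a count. Per kilobase the gap was smaller, with a list median of 2.54 and 3.56 CPM beside 1.52 and 2.29. The zinc finger genes Zfp423 and Zfp521, whose proteins bind Ebf proteins and can hold back their activity, stood at 74.7 and 88.3 CPM and at 101 and 198 CPM. Per kilobase Zfp521 averaged 21.3 ± 9.80 and Zfp423 14.5 ± 1.71 CPM, each lower than Ebf1 and Ebf3 in both libraries. Both zinc finger genes were above Ebf2 and Ebf4 per kilobase in both libraries.

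The genes of the E proteins, helix-loop-helix factors that act beside Ebf1 in B cells, were all detected. Tcf4 stood at 69.5 and 85.6 CPM and Tcf12 at 38.5 and 42.4 CPM. Tcf3, the E protein gene best known from B cells, stood at 5.94 and 8.51 CPM. That is near the median over all genes with a count, 5.81 and 8.66 CPM. Of the Id genes, whose products bind E proteins and keep them from DNA, Id4 stood at 101 and 63.3 CPM. Id2 stood at 3.66 and 10.8 CPM, Id3 at 1.89 and 0.946 CPM, and Id1 had no count in either library. Id4 was thus the main Id gene read in both libraries.

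The 3 partners highest in mean CPM were chromatin regulators. Smarca4, the motor of a chromatin remodelling complex, stood at 394 and 374 CPM, Tet2, which oxidises methylated cytosine, at 163 and 198 CPM and Chd4, a remodeller of the NuRD complex, at 123 and 218 CPM. Cnot3, of the complex that shortens mRNA tails, stood at 18.2 and 28.5 CPM. Of the factors that act with Ebf1 in the B lineage, Runx1 stood at 46.4 and 30.7 CPM, Foxo1 at 1.26 and 5.17 CPM and Pax5 at 0 and 0.582 CPM. Between the libraries 2 of 14 partners tested, Id2 and Foxo1, were called lower in A by the exact binomial test and 0 higher, against 33.6% and 10.9% of all genes.

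**Figure D5:**
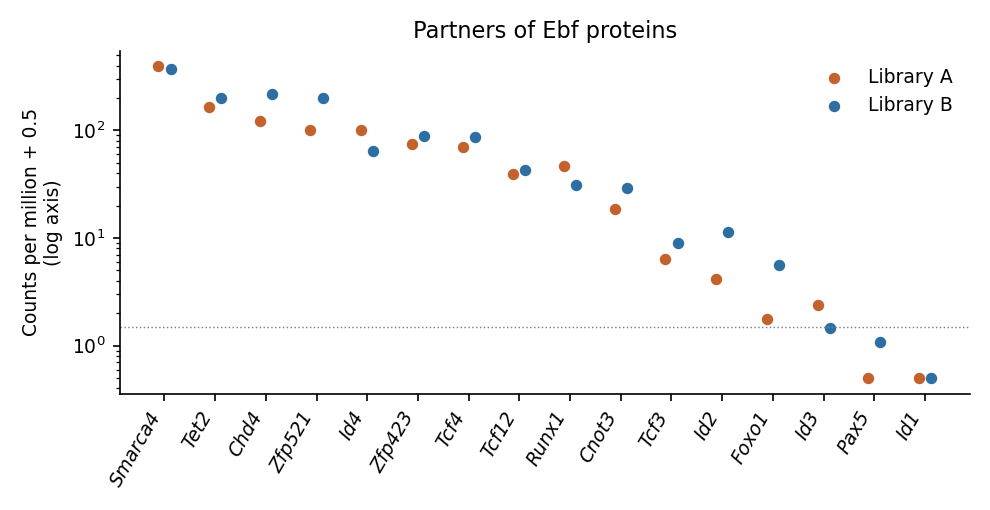
CPM + 0.5 (log axis) of the 16 partner genes in library A and library B, in order of the mean. The dotted line marks 1 CPM (drawn with the same 0.5 added), and Pax5, Id1 and, in library B, Id3 lie below it.

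Other factors with a Rel or immunoglobulin-like domain related to that of Ebf proteins ranged widely. Of 14 such genes 8 were detected, beside 11241 of all 24015 symbols and 66.2% of those with a count. The list median was 4.42 CPM in A and 6.77 in B, beside 5.81 and 8.66 CPM over all genes with a count. Per kilobase the list median was 0.491 and 0.724 CPM, beside 1.52 and 2.29 over all genes with a count. Of the 14 genes, 2 exceeded 100 CPM in both libraries. Camta1, a calmodulin-binding activator, was the highest at 883 and 1171 CPM. Per kilobase it averaged 70.5 ± 13.97 CPM, beside 81.9 ± 7.18 for Ebf3 and 76.0 ± 20.96 for Ebf1. Nfat5, of the response to salt stress, was the other at 340 and 147 CPM. Nfatc3, of calcium signalling, stood at 40.2 and 50.2 CPM.

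Genes placed near Ebf factors in other tissues were read last. Proneural helix-loop-helix factors and related genes, several of which act before Ebf genes in neurons, were detected in 6 of 11 cases. Over all 24015 symbols 11241 were detected, or 66.2% of those with a count. Of the 11 genes, 3 exceeded 10 CPM in both libraries, namely Neurod1 (44.7 and 49.5 CPM), Neurod4 (14.3 and 17.2 CPM) and Nhlh2 (11.5 and 12.4 CPM), and Atoh7 and Neurog1 had no count. Of 5 genes of olfactory neurons tied to Ebf sites, Gnal, which encodes a stimulatory G protein subunit, stood at 637 and 662 CPM. Adcy3 stood at 6.70 and 13.8 CPM, Ano2 at 3.16 and 0.364 CPM, and Cnga2 had no count. Of 7 fat cell genes none reached 1 CPM in both libraries, beside 11241 of all 24015 symbols and 66.2% of those with a count. Prdm16 stood at 0.253 and 10.5 CPM, Cebpa at 0 and 1.16 CPM and Ucp1 at 0 and 0.291 CPM, and Adipoq had no count.

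The genes nearest to each Ebf gene in level were found by the distance of log2(CPM + 0.5) over the 2 libraries. With 2 libraries such nearness says only that 2 genes had like values in each. Nearest to Ebf1 were Pak3, Itfg1 and Eif4g3, at distances of 0.04, 0.10 and 0.13. Nearest to Ebf3 were Cep170, Rian and Camk4, at 0.03, 0.08 and 0.08. Hps3 and Vti1b were among the 3 nearest to Ebf2, both at 0.03, and Sema3f, Fgfr1 and Tmbim1 were nearest to Ebf4, each at 0.06.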

How the data were processed

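Each of the 2 libraries has a file of raw counts by gene symbol, as the authors deposited them. Per the submitters' processing notes, HTSeq 0.6.1, TopHat2 2.0.10 and Trimmomatic 0.32 were used with build mm9. No source used here states settings, annotation or strand. Genes received 26.8% of the tallied reads in library A and 30.9% in library B, and the remaining summary lines were left out of all totals. CPM was computed from the gene total. Exon lengths and transcripts came from GENCODE M21 on another build (GRCm38), which matched 22709 of the 24015 symbols, so no coordinates are given.

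Dispersion came from an edgeR 4.0.16 intercept-only fit with TMM factors in R 4.3.3, after its expression filter. With 1 group, edgeR's quasi-likelihood test had no contrast. The exact binomial test covered genes with at least 10 counts in all. DESeq2 1.42.0 gave alternative size factors. Coding sequences (the longest complete one per gene) were aligned with MAFFT 7.526. The methods were tested on simulated data with less spread than these libraries, and with counting error only for the exact test. Those simulations do not show how the methods behave at the spread of these libraries. P-values measure the difference between these 2 libraries only.

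The members and gene lists were chosen with earlier results of these data known. The text names all Ebf genes and partners, the 3 highest genes of each other list and those at 0, and the 3 nearest genes to each member. Some genes that this rule takes are not reported here. Vsx1, Klf7 and the lower genes of the Müller glia list were named after their values were seen. Because no protein table was given, the planned protein alignment was made on coding sequences.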

Additional observations from a re-analysis of the deposited data

How the results depend on the processing

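With 1 library left out, the level of Ebf2 was 10.6 to 24.1 CPM, and with 2 libraries such a range has no test. Scaling by TMM, by DESeq2 size factors or by a total without Rn45s, Lars2 and Gm20594 kept each Ebf level within 1 SD. TMM and DESeq2 factors move the 2 libraries in opposite directions, so the mean changes little by design. The SD is itself set by the difference between the 2 libraries, so this is no test of the scaling. The 4 ratios of Ebf1 or Ebf3 to Ebf2 or Ebf4 kept an interval above 1 under every alternative run, with lowest log2 bounds of 2.06 to 3.24. Leaving out 1 library gave log2 ratios of -0.24 to 0.51 for Ebf3 over Ebf1 and -0.028 to 0.83 for Ebf2 over Ebf4, with intervals that held 0, and ranks by CPM of 27 to 32 for Ebf2 and 2 in either library for Ebf3, which ranked 1 by mean CPM and 4 per kilobase. On the log2 scale of A over B, TMM gave -0.80 for Ebf2, which ended its call, 0.20 for Ebf3 and 0.058 for Ebf4, and DESeq2 size factors gave 1.05 for Ebf1, now past 2-fold, -0.71 for Ebf2, 0.30 for Ebf3 and 0.15 for Ebf4. The scaling itself shifts all genes. Without a minimum fold Ebf1 (0.57) and Ebf3 (-0.18) were also called, and 10974 of the 14107 genes tested were called in place of 6274. The agreement of the libraries has no value with 1 library left out. No paired analysis was possible because there is 1 group. Ebf2 and Ebf4 are limited by depth, with 84 and 40 counts in library A.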
